A study of Mus musculus with 12 samples.

Results

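The genes described here are the MHC class I and immunoproteasome genes of the NanoString Mouse Immune Exhaustion panel: H2-K1, H2-D1, H2-Q10, H2-T23, H2-M3, Tapbp, Psmb9, Psmb10 and the probe shared by Psme2 and Psme2b, named Psme2/2b. They were taken by name from the table of deposited values and make up 9 of its 773 probes. The panel counts RNA molecules with bar-coded probes and no amplification, and the values are log2 counts that the submitters normalized. The RNA came from CD8+ T cells sorted, after CD45 enrichment, from MC38 tumours (a mouse colon carcinoma line) grown in C57BL/6J mice. All groups shared this tumour, strain and sort. Tumours received 20 Gy when they measured 40 to 100 mm3, in 3 modes that the labels call SRT, CRT and SRT-like without spelling them out, and tumours labelled Nontreated served as controls. Each of the 4 groups had 3 samples, 12 in all. The labels give no time after irradiation and no age. Nothing in them tells separate mice from repeats of one preparation, so the spread behind each p-value may be technical.

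MHC class I molecules carry peptides from proteins made inside the cell to its surface, where CD8 T cells read them. Nearly all nucleated cells, T cells included, carry them. The proteasome cuts the proteins, and in immune cells and under interferon some of its catalytic subunits are replaced by the immunoproteasome subunits, which favours peptides that class I can hold. H2-K1 and H2-D1 encode the classical class I heavy chains, which present peptides to most CD8 T cells. H2-T23 encodes Qa-1, a non-classical chain that presents peptides to the receptor CD94/NKG2 and to a few T cells. H2-M3 encodes a non-classical chain that presents peptides beginning with formylated methionine, as bacteria and mitochondria make them. H2-Q10 encodes a secreted class I chain known mainly from liver. Tapbp encodes tapasin, which holds class I at the peptide transporter while it is loaded. Psmb9 and Psmb10 encode catalytic subunits of the immunoproteasome, and Psme2 encodes the beta subunit of PA28, a cap that binds the end of the proteasome core.

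The promoters of the 5 class I chains are shown because each held an interferon response core, and those of H2-K1 and H2-D1 also held a kappa B site. Interferons and NF-kappaB are known to act on class I genes through such elements. All 9 probes matched the RefSeq table of promoters on the GRCm38.p6 build, with 11 start sites, each given as 250 bases before and 50 bases after the start. The stretches below run 5′ to 3′ along the gene, 115 bases each. Capitals mark a match to a searched motif, read on either strand.
H2-K1: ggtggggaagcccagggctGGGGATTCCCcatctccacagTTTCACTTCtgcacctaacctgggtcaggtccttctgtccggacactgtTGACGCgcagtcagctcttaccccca
H2-D1: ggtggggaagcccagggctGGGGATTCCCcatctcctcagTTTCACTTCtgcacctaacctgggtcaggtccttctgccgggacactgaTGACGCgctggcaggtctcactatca
H2-Q10: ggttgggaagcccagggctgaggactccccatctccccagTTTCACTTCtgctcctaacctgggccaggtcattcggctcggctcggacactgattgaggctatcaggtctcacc
H2-T23: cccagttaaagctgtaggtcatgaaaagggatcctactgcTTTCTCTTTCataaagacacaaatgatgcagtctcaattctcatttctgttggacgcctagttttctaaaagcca
H2-M3: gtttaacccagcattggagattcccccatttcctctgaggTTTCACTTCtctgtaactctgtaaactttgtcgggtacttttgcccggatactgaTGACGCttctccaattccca

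All 5 stretches lie in the MHC on chromosome 17, upstream of a start site: H2-K1 at chr17:34000363-34000477 on the minus strand, H2-D1 at chr17:35262904-35263018 on the plus strand, H2-Q10 at chr17:35469894-35470008 on the plus strand, H2-T23 at chr17:36032751-36032865 on the minus strand and H2-M3 at chr17:37270093-37270207 on the plus strand. The short interferon response core GAANNGAAA stood in the promoters of H2-K1, H2-D1, H2-Q10 and H2-M3, and in 7.52% of the 32851 promoters of the table. The longer interferon response core, with GAAA half-sites 2 bases apart, stood in H2-T23 alone among the 9 genes and in 3.44% of all promoters. The kappa B site, the first capitals in the H2-K1 and H2-D1 stretches, stood in those 2 genes alone among the 9 and in 0.107% of all promoters. The CRE-like letters TGACGC stood in H2-K1, H2-D1, H2-M3 and Psme2 and in 7.4% of all promoters, and the gamma-activated letters TTCNNNGAA stood in H2-M3 and in 8.3% of all promoters. Tapbp, Psmb9 and Psmb10 held none of these letters in this window. A match describes the letters and does not show that a factor binds, and no match says only that the letters are not in this window.

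Every sample gave whole molecule counts once the scaling was undone, between 118694 counts in Nontreated replicate 3 and 467904 in Nontreated replicate 2. The CD8 T cell markers Cd3d, Cd3e, Cd3g, Cd8a and Cd8b1 were above background in all 12 samples, where background is the mean plus 2 SD of 20 probes for genes that T cells should lack. Markers of other cells were partly present: 4 of 8 macrophage and monocyte markers (Cd68, Tyrobp, Ccr2 and Cd86), 2 of 4 dendritic cell markers (Itgax and Cd80) and 1 of 8 B and plasma cell markers (Ighm) were above background in all 12 samples. Another 3 macrophage and monocyte markers (Csf1r, Cd14 and Cd163), 0 dendritic cell markers, 6 B and plasma cell markers and Cd4 were above background in no sample. All probes together sat higher in the irradiated samples: the median difference from Nontreated over the 773 probes was 0.22 on the log2 scale for SRT, 0.26 for CRT and 0.15 for SRT-like. Over the 436 probes above background in every sample of at least 1 group, that median was 0.04, 0.12 and 0.11. The depth also differed, with the shallowest library among the controls, and its part in the results was not tested.

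The 9 genes had higher means in each radiotherapy mode than in Nontreated, by 0.07 to 1.02 on the log2 scale, and none of these differences passed the test. Of all probes, 70.6% were higher under SRT, 77.2% under CRT, 64.7% under SRT-like and 73.7% in the mean of the modes. The differences in the mean of the modes were largest for H2-T23, H2-Q10 and Tapbp and smallest for Psme2/2b. By limma with Benjamini-Hochberg adjustment over all 773 probes and a threshold of 0.05, 0 of the 9 genes were called in SRT, where 0% of all probes were called. In CRT 0 of 9 were called, with 3.1% of all probes called, and in SRT-like 0 of 9, with 0.647% of all probes called. Against the mean of the 3 modes 0 of 9 were called, with 3.1% of all probes called. At an unadjusted p under 0.05, higher in every case, limma gave 1 gene under SRT, 4 under CRT, 4 under SRT-like and 6 in the mean of the modes, against 10.3%, 14%, 10.3% and 14.4% of all probes. These 4 comparisons share the same 3 Nontreated samples, so they are not independent of each other.

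The counts at an unadjusted p under 0.05 moved with single libraries, and the share of all probes, given in brackets, moved with them. For the mean of the modes the count was 3 without Nontreated replicate 1 (9.57%) and 1 without Nontreated replicate 2 (8.93%). For CRT leaving out Nontreated replicates 1, 2 and 3 in turn gave 2 (9.96%), 1 (10.9%) and 6 (28.6%), and the count was 2 without SRT replicate 2 (12%), CRT replicate 3 (11.1%) or SRT-like replicate 1 (12.7%), 2 (12.2%) or 3 (12.8%). For SRT it was 3 without Nontreated replicate 3 (26.1%), 2 without CRT replicate 3 (10.3%), and 0 without Nontreated replicate 1 (7.5%), Nontreated replicate 2 (6.6%) or SRT replicate 1 (12.8%). For SRT-like it was 2 without SRT-like replicate 3 (7.5%).

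**Figure D1:**
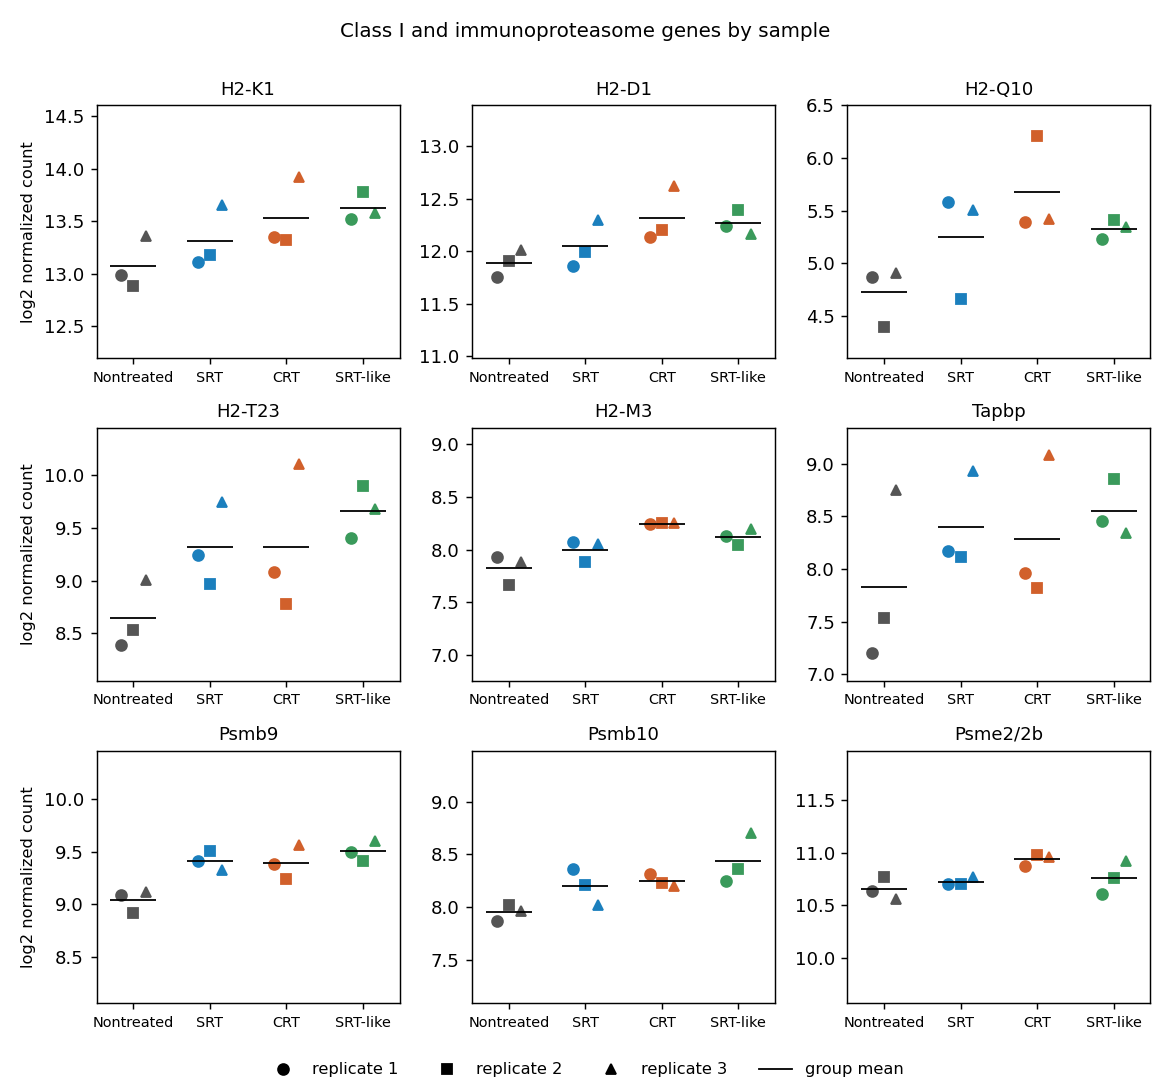
Log2 normalized count of each gene (vertical axis) in each of the 12 samples, grouped by radiotherapy mode (horizontal axis), with the replicate shown by the symbol and the group mean by a bar; each panel covers its own range of the axis. The Psmb9 and Psmb10 samples of Nontreated lie below all 9 irradiated samples, while replicate 3 is the highest of its group for H2-K1, H2-D1, H2-T23 and Tapbp in Nontreated, SRT and CRT.

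H2-K1 read 12.99, 12.88 and 13.36 in Nontreated, 13.11, 13.18 and 13.65 under SRT, 13.35, 13.32 and 13.92 under CRT, and 13.52, 13.78 and 13.58 under SRT-like (log2 values, replicates 1 to 3). The SRT-like samples all lay above the Nontreated samples, whereas the SRT and CRT samples overlapped with them because of Nontreated replicate 3. The difference from Nontreated was 0.24 ± 0.23 (SE, n = 3 a group) under SRT, 0.46 ± 0.23 under CRT and 0.55 ± 0.23 under SRT-like, with limma adjusted p of 0.7, 0.383 and 0.374. The SRT difference was 0.07 when SRT replicate 3 was left out, and leaving out Nontreated replicate 2 or 3 gave 0.14 or 0.38. The CRT difference was 0.26 when CRT replicate 3 was left out. The H2-K1 probe gave the highest value of all 773 probes in each of the 12 samples. It took from 3.06% of all molecules counted, in Nontreated replicate 2 (95% Wilson interval 3.01 to 3.11), to 5.64% in CRT replicate 3 (5.52 to 5.75), intervals that cover counting error only. Probes differ in how well they capture their target, so this is not a ranking of transcripts.

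H2-D1, the other classical chain, read 11.75, 11.91 and 12.01 in Nontreated, 11.86, 11.99 and 12.30 under SRT, 12.13, 12.20 and 12.62 under CRT, and 12.24, 12.39 and 12.16 under SRT-like. The CRT and SRT-like samples lay above every Nontreated sample, and the SRT samples overlapped with Nontreated. The difference was 0.16 ± 0.19 under SRT, 0.43 ± 0.19 under CRT and 0.37 ± 0.19 under SRT-like, with limma adjusted p of 0.753, 0.318 and 0.551. Without SRT replicate 3 the SRT difference was 0.03, without SRT replicate 1 it was 0.26 and without Nontreated replicate 1 it was 0.09. Without CRT replicate 3 the CRT difference was 0.27. The probe sequences were not used here and class I chains are close in sequence, so how much of one chain's transcript the probe of another captures was not tested.

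H2-T23 had the largest difference of the 9 genes in SRT and in SRT-like. It read 8.39, 8.53 and 9.01 in Nontreated, 9.24, 8.97 and 9.75 under SRT, 9.08, 8.78 and 10.11 under CRT, and 9.41, 9.90 and 9.68 under SRT-like. The SRT-like samples lay above all Nontreated samples; SRT replicate 2 and CRT replicate 2 lay below Nontreated replicate 3. The SRT-like mean was 1.02 ± 0.34 higher, a 2.03-fold difference with a 95% interval of 0.26 to 1.78 on the log2 scale and a limma adjusted p of 0.26. The differences of 0.67 ± 0.34 in SRT and 0.68 ± 0.34 in CRT had limma adjusted p of 0.497 and 0.387. Without CRT replicate 3 the CRT difference was 0.28.

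H2-M3 had an SD of 0.01 to 0.14 within groups. It read 7.93, 7.66 and 7.88 in Nontreated, 8.07, 7.88 and 8.05 under SRT, 8.24, 8.25 and 8.25 under CRT, and 8.13, 8.04 and 8.20 under SRT-like. The 3 CRT samples lay above every sample of the other 3 groups, and the SRT-like samples lay above every Nontreated sample. The CRT mean was 0.42 ± 0.15 above Nontreated, with a limma adjusted p of 0.189, and the SRT and SRT-like means were 0.18 ± 0.15 and 0.30 ± 0.15 above it, with adjusted p of 0.653 and 0.522. Without Nontreated replicate 2 the SRT difference was 0.10.

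H2-Q10 was the dimmest of the 9 and the only one not above background in every sample: it passed in 2 of 3 Nontreated, 2 of 3 SRT, 3 of 3 CRT and 3 of 3 SRT-like samples. It read 4.87, 4.39 and 4.91 in Nontreated, 5.58, 4.66 and 5.51 under SRT, 5.39, 6.21 and 5.42 under CRT, and 5.23, 5.41 and 5.34 under SRT-like. CRT replicate 2 was the highest, the CRT and SRT-like samples lay above all Nontreated samples, and SRT replicate 2 lay within the Nontreated range. The CRT mean was 0.95 ± 0.30 higher, a 1.93-fold difference with the smallest p of any of the 9 genes in CRT and a limma adjusted p of 0.142. In SRT the difference was 0.52 ± 0.30 (adjusted p 0.524), or 0.82 without SRT replicate 2, and in SRT-like 0.60 ± 0.30 (adjusted p 0.525). The mean of the 20 background probes was 2.52 to 3.39 in the Nontreated samples and 2.87 to 3.69 in the irradiated samples, and its part in this difference was not tested. The 2 other class I probes of the panel, H2-Q1 and H2-Q2, were above background in no sample.

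Tapbp, the loading factor, had the largest SD of the 9 genes in Nontreated, 0.82, and in SRT-like, 0.27. It read 7.20, 7.53 and 8.75 in Nontreated, 8.17, 8.11 and 8.93 under SRT, 7.96, 7.82 and 9.08 under CRT, and 8.46, 8.86 and 8.34 under SRT-like. Every irradiated group overlapped with Nontreated, since Nontreated replicate 3 lay above 6 of the 9 irradiated samples. The differences of 0.57, 0.46 and 0.72 in SRT, CRT and SRT-like each had an SE of 0.44, with limma adjusted p of 0.615, 0.644 and 0.619. They moved with single samples. Leaving out Nontreated replicate 1 gave 0.26, 0.14 and 0.41 for SRT, CRT and SRT-like and 0.27 for the mean of the modes, which was 0.59 with all samples. Leaving out Nontreated replicate 3 gave 1.04, 0.92, 1.19 and 1.05. The SRT difference was 0.31 when SRT replicate 3 was left out, and the CRT difference was 0.06 when CRT replicate 3 was.

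Psmb9, the immunoproteasome subunit also called LMP2, gave the smallest p of the 9 genes in the comparison of the mean of the 3 modes with Nontreated. It read 9.09, 8.92 and 9.12 in Nontreated, 9.41, 9.51 and 9.33 under SRT, 9.38, 9.24 and 9.56 under CRT, and 9.50, 9.41 and 9.60 under SRT-like. All 9 irradiated samples lay above all 3 Nontreated samples. The mean of the modes was 0.40 ± 0.12 higher, or 1.32-fold, with a 95% interval of 0.12 to 0.67, an unadjusted p of 0.00915 and a limma adjusted p of 0.153. The differences by mode were 0.37 ± 0.15, 0.35 ± 0.15 and 0.46 ± 0.15 in SRT, CRT and SRT-like, with limma adjusted p of 0.394, 0.315 and 0.26.

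Psmb10, the subunit also called MECL-1, read 7.87, 8.02 and 7.96 in Nontreated, 8.36, 8.21 and 8.02 under SRT, 8.31, 8.23 and 8.20 under CRT, and 8.25, 8.36 and 8.70 under SRT-like. Its irradiated samples also all lay above the Nontreated samples, although SRT replicate 3 and Nontreated replicate 2 both round to 8.02. The differences were 0.25 ± 0.17, 0.30 ± 0.17 and 0.49 ± 0.17 in SRT, CRT and SRT-like, with limma adjusted p of 0.561, 0.432 and 0.26.

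Psme2/2b read 10.64, 10.77 and 10.56 in Nontreated, 10.70, 10.70 and 10.77 under SRT, 10.87, 10.98 and 10.96 under CRT, and 10.61, 10.76 and 10.92 under SRT-like. The CRT samples lay above all Nontreated and all SRT samples, and the other groups overlapped. The difference was 0.28 ± 0.15 in CRT, 0.07 ± 0.15 in SRT and 0.10 ± 0.15 in SRT-like, with limma adjusted p of 0.402, 0.887 and 0.903. Leaving out Nontreated replicate 2 gave 0.12 in SRT and 0.16 in SRT-like, and leaving out Nontreated replicate 3 gave 0.02 and 0.06. The SRT difference was 0.04 when SRT replicate 3 was left out, and the SRT-like difference was 0.18 or 0.03 when SRT-like replicate 1 or 3 was. The probe does not separate Psme2 from its near copy Psme2b.

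Counted by overlap, the irradiated samples lay above all Nontreated samples for 2 of the 9 genes in SRT (Psmb9 and Psmb10), where this held for 10.9% of all probes. In CRT it held for 6 of 9, namely H2-D1, H2-Q10, H2-M3, Psmb9, Psmb10 and Psme2/2b, against 15.4% of all probes. In SRT-like it held for 7 of 9, all but Tapbp and Psme2/2b, against 13.2% of all probes. Psmb9 and Psmb10 were the 2 genes in which all 9 irradiated samples exceeded all 3 controls, against 4.66% of all probes. Without Nontreated replicate 3, the shallowest library, the counts were 5, 9, 8 and 5 for SRT, CRT, SRT-like and all modes, and the shares of all probes were 39.1%, 43.7%, 35.4% and 19.3%. Without SRT replicate 2, the SRT count was 5, against 15.8% of all probes, and the count over all modes was 4, against 5.69%. Without Nontreated replicate 1 the SRT count was 3, against 14.1% of all probes, and the count over all modes was 3, against 6.99%. Without Nontreated replicate 2 the SRT count was 3, against 14.2% of all probes.

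The median difference of the 9 genes from Nontreated was 0.25 for SRT, 0.43 for CRT, 0.49 for SRT-like and 0.40 for the mean of the modes. In the last comparison it was 0.22 for all probes and 0.10 for the probes above background. Since most probes were higher in the irradiated samples, each sample was also centred on its median over all probes. The members' medians were then -0.02, 0.10, 0.31 and 0.14, and 4, 7, 8 and 8 of the 9 genes had higher means than Nontreated. In SRT the centred differences of H2-K1, H2-D1, H2-M3, Psmb10 and Psme2/2b were below 0, so the direction of these genes in SRT depends on the scaling. In CRT those of Psmb10 and Psme2/2b were below 0, and in SRT-like that of Psme2/2b. Without this centring, all 9 means stayed higher in SRT when scaled to the CD8 T cell markers or with voom. With quantile normalization 8 of 9 did, but H2-K1 cannot differ there because it ranked first in every sample.

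**Figure D2:**
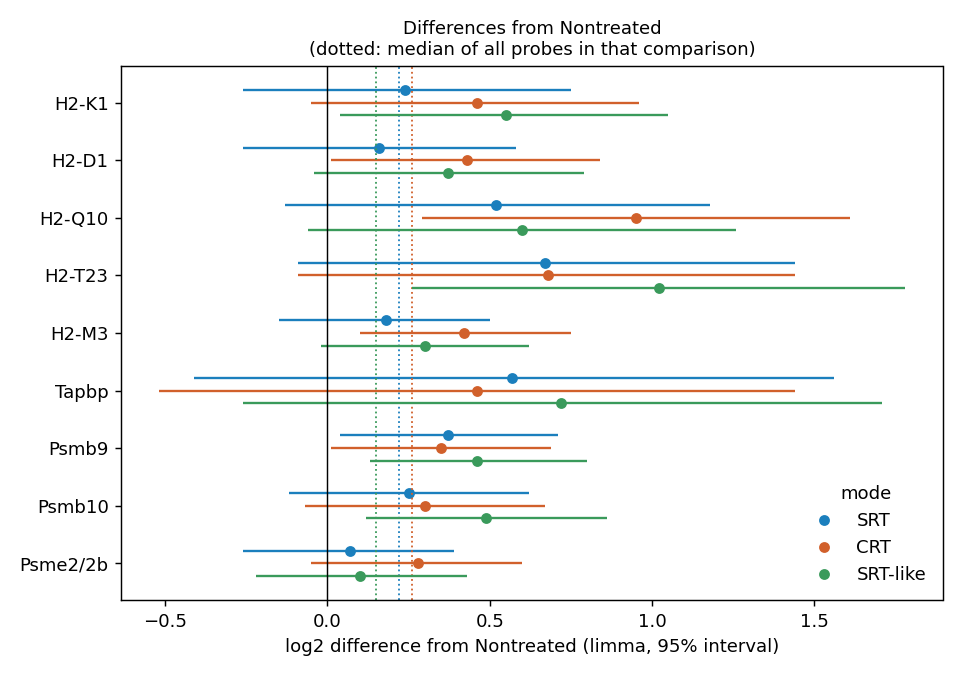
Log2 difference of each radiotherapy mode from Nontreated (horizontal axis) for each gene (vertical axis), as limma estimates with 95% intervals that are not adjusted for the number of probes; dotted lines mark the median difference of all 773 probes in the mode of the same colour. All 27 points lie above 0, and most intervals reach 0 or the dotted line.

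Among the modes the 9 genes were not distinguished by any test. An F test over the 4 groups in limma gave adjusted p from 0.412 for Psmb9 to 0.748 for Tapbp, 0 of 9 called, with 0% of all probes called and 11.9% at an unadjusted p under 0.05. In SRT against CRT limma called 0 of 9 genes after adjustment and 0 at an unadjusted p under 0.05, against 0% and 6.6% of all probes, and the differences ranged from -0.42 to 0.12. The smallest p were those of H2-M3, lower in SRT by a log2 difference of -0.25 (95% interval -0.57 to 0.08, limma adjusted p 0.812), and of Psme2/2b, at -0.21 (-0.54 to 0.11, limma adjusted p 0.865). These were the 2 genes whose SRT samples all lay below the CRT samples, against 7.76% of all probes. In SRT-like against SRT all 9 means were higher in SRT-like (48.1% of all probes were), by 0.04 to 0.34, with 0 called and 0 at an unadjusted p under 0.05, against 0% and 5.69% of all probes. That direction depends on the scaling. With scaling to the CD8 T cell markers or with voom 5 of the 9 were higher in SRT-like. The count was also 5 with quantile normalization, where H2-K1, ranked first in every sample, cannot differ. On the deposited values Psmb10 differed between SRT-like and SRT by 0.24 (-0.13 to 0.61, limma adjusted p 0.973) and H2-K1 by 0.31 (-0.20 to 0.81, limma adjusted p 0.976). In SRT-like against CRT the differences ran from -0.34 to 0.34, again with 0 called and 0 at an unadjusted p under 0.05, against 0% and 9.83% of all probes. The smallest p were those of Psme2/2b at -0.17 (-0.50 to 0.15) and H2-Q10 at -0.34 ± 0.30 (SE), both with a limma adjusted p of 0.729. H2-M3 was the 1 gene whose SRT-like samples all lay below the CRT samples, against 13.3% of all probes. These intervals leave room for differences of the size seen against Nontreated.

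Ordered by mean, Nontreated was the lowest group for all 9 genes. SRT-like had the highest mean for H2-K1, H2-T23, Tapbp, Psmb9 and Psmb10, and CRT had the highest for H2-D1, H2-Q10, H2-M3 and Psme2/2b. Neighbouring groups in these orders overlapped, except Nontreated with the next group for Psmb9 and Psmb10 and SRT-like with CRT for H2-M3.

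The genes fell into sets by how they varied among replicates. The deviations of H2-K1, H2-D1, H2-T23 and Tapbp from their group means ran together, with r from 0.86 to 0.92 over the 12 samples for each pair. For these 4 genes replicate 3 was the highest of its group in Nontreated, SRT and CRT, and replicate 2 was the highest in SRT-like. Replicates 3 of Nontreated, SRT and CRT are numbered 7, 8 and 9 in the labels and had 118694, 161752 and 160828 counts. The part of depth and of the sample numbers in this pattern was not tested. Over all 36 pairs of the 9 genes the median r of the values was 0.54 and that of the deviations 0.09, beside 0.12 and 0.11 over the 94830 pairs of the 436 probes above background. These correlations describe 12 samples that share the panel, the scaling and the depth of each library.

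**Figure D3:**
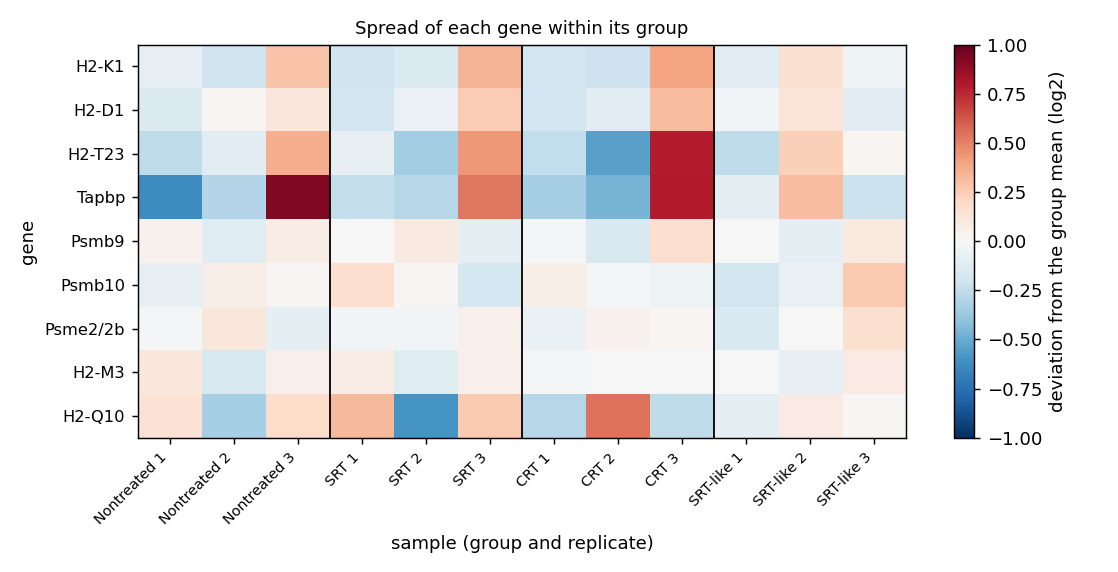
Deviation of each gene (rows) from its group mean in each of the 12 samples (columns, by group and replicate), in log2 units from blue for below the mean to red for above it. H2-K1, H2-D1, H2-T23 and Tapbp are all red in replicate 3 of Nontreated, SRT and CRT and in replicate 2 of SRT-like, and none of the other 5 genes is red in all 4 of these columns.

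The deviations of each gene were set against 3 measures of the same samples: the mean of 11 type I interferon targets, the mean of 8 class II antigen presentation genes and the log2 depth. Of the 11 targets 7 were above background in all samples. Of the 8 class II genes 1 was, and 2 were above background in no sample, so that mean lies partly near background. None of the 27 relations passed Benjamini-Hochberg adjustment, with 0.281 as the smallest adjusted p by exact 2-sided permutation of the samples within groups. The gene with the smallest p for r is given for each measure. With the interferon targets, Psme2/2b had r 0.68 (exact permutation p 0.0448) and rho 0.68 (exact permutation p 0.0664), and r 0.77 without the 2 samples farthest from the median. H2-K1 had r -0.71 with depth (exact permutation p 0.0293) and rho -0.50 (exact permutation p 0.154), and r -0.64 without the 2 farthest samples. With the class II genes Tapbp had r -0.68 (exact permutation p 0.0633) and rho -0.78 (exact permutation p 0.0185), and r -0.58 without the 2 farthest samples. These values depend on the scaling. With median centring r was 0.131 for Psme2/2b with the interferon targets, -0.411 for H2-K1 with depth and -0.787 for Tapbp with the class II genes. Scaled to the CD8 T cell markers the same r were 0.90, -0.788 and -0.401. With quantile normalization they were 0.464 and -0.841 for the first and the last, and H2-K1 has no value because it ranked first in every sample. The smallest adjusted p under these scalings was 0.074, by exact permutation.

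By Pearson's r over the 12 samples, among 435 other probes above background, the pattern most like H2-K1 was that of Cd274, which encodes the checkpoint ligand PD-L1, at 0.95, followed by H2-D1 and H2-T23, each at 0.93. Most like H2-D1 were H2-K1 and Cd274, each at 0.93, and Tbk1, a kinase of innate sensing, at 0.92. Most like H2-T23 were H2-K1 at 0.93 and Tab2 and Tyk2, each at 0.90, and Tyk2, a kinase of the interferon receptors, was also the nearest to Tapbp at 0.90. Cd274 stayed close to H2-K1 within groups, with r 0.94 for the deviations, and its own difference for the mean of the modes was 0.62 ± 0.20 with a limma adjusted p of 0.159. For the other probes named for H2-K1, H2-D1, H2-T23 and Tapbp, r within groups ran from 0.83 to 0.93. Psmb9 had other neighbours, Ccr1 at 0.88, Ptpn18 at 0.83 and Klf2 at 0.79, and within groups these r were 0.37, 0.52 and 0.15. The nearest probe was Il10ra at 0.84 for H2-M3, Tnfsf9 at 0.87 for Psmb10 and Ifit1 at 0.90 for Psme2/2b, with r within groups of 0.11, 0.57 and 0.86.

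Other genes of the pathway were counted in the same fit. The list named constitutive proteasome held 4 genes of the panel, Psma1, Psma6, Psmc6 and Psmd6. They encode core and regulatory cap subunits that the immunoproteasome shares. Their median difference was -0.09 for the mean of the modes, with 0 called. Psmd6 was at -0.34 ± 0.14 (limma adjusted p 0.304) and Psma1 at -0.16 ± 0.17 (adjusted p 0.707). Psma1 and the chaperone gene Hspa5 were the only other measured antigen processing genes, with 0 of 2 called and Hspa5 at 0.16 ± 0.19 (adjusted p 0.739). Of the 2 class I relatives, H2-Q1 was at 1.21 ± 0.39 and H2-Q2 at 0.46 ± 0.56, with 0 called (adjusted p 0.165 and 0.739) and no sample above background.

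Of 15 measured regulators of class I expression (cytokines, JAK and STAT proteins, interferon regulatory factors and NF-kappaB subunits) 0 were called in any mode, with a median of 0.02 for the mean of the modes. Tnf, a cytokine that acts through NF-kappaB, was at 0.92 ± 0.30 (limma adjusted p 0.159), and Stat3 was at -0.37 ± 0.13 (limma adjusted p 0.205). Of 6 receptors that bind class I, 0 were called, with a median of 0.14; Pirb was at 0.62 ± 0.30 (limma adjusted p 0.4) and Klrd1, which encodes CD94, at -0.23 ± 0.16 (limma adjusted p 0.516).

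The 11 measured type I interferon targets had higher means than Nontreated in every mode. For all 11 of them, all 9 irradiated samples lay above all 3 Nontreated samples, against 4.66% of all probes. In CRT and in the mean of the modes limma called 11 of 11, against 3.1% of all probes in each. It called 1 of 11, Rsad2, in SRT-like and 0 in SRT. The SRT differences ran from 0.71 to 1.74, with 0.15 as the smallest limma adjusted p. The targets were Rsad2, Ifit1, Ifit3/3b, Mx1, Mx2, Oas1a, Oas2, Oas3, Bst2, Xaf1 and Rnf213. Their median difference was 1.70 for the mean of the modes, with a range of 0.99 to 2.13. The calls depended on single libraries and on the setting, and the share of all probes called is given in brackets. In CRT limma called 0 of 11 when CRT replicate 2 was left out (0%), 3 when CRT replicate 3 was (0.776%) and 1 when Nontreated replicate 1 was (0.388%). It called 5 when scaled to the CD8 T cell markers (0.776%) and 0 when only the groups compared were fitted (0%). In the mean of the modes it called 1 without Nontreated replicate 1 (0.517%), CRT replicate 2 (0.259%) or SRT-like replicate 2 (0.259%). It called 5 without Nontreated replicate 2 (1.16%) and 7 without SRT-like replicate 3 (1.94%). There it called 7 with median centring (1.42%) and 4 with the irradiated samples as 1 group (1.03%). It called 2 with quantile normalization (0.259%) and 0 when scaled to the CD8 T cell markers (0%). Over the settings it called at most 4 of 11 in SRT, with voom (1.55% of all probes). In SRT-like it called at most 5, with sample weights (1.94%). It called 0 in SRT-like with median centring, quantile normalization or scaling to the CD8 T cell markers (0% in each). The call of Rsad2 in SRT-like was kept in 1 of 12 fits that left out a sample, that without SRT replicate 3. The 9 class I and immunoproteasome genes ranged from 0.15 to 0.79 in the mean of the modes. In SRT-like the ranges met, at 0.10 to 1.02 for the 9 genes and 0.84 to 2.05 for the interferon targets. The test of the difference between the 2 lists was not made.

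**Figure D4:**
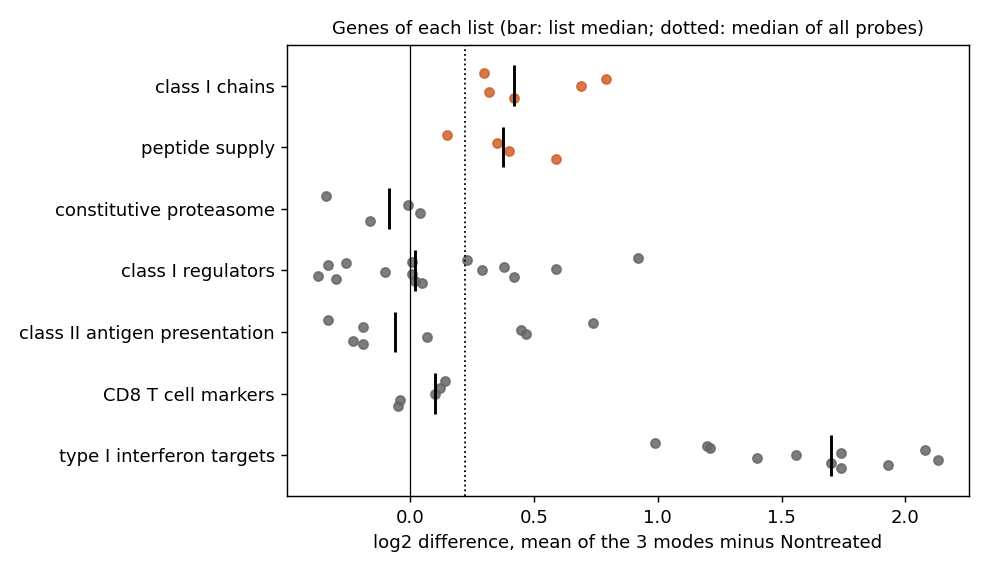
Log2 difference of the mean of the 3 modes from Nontreated (horizontal axis) for each measured gene (points) of 7 lists (rows), with a bar at the list median and a dotted line at the median of all 773 probes, 0.22. The class I chains and the peptide supply genes (Tapbp, Psmb9, Psmb10, Psme2/2b) lie between 0.15 and 0.79, and the type I interferon targets lie between 0.99 and 2.13. The row named constitutive proteasome holds subunits that the immunoproteasome shares.

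Markers of other cells were set beside these values because macrophages, dendritic cells and B cells also express class I and the immunoproteasome. The 8 measured macrophage and monocyte markers had summed normalized counts of 505 to 574 in Nontreated, 626 to 854 in SRT, 761 to 1090 in CRT and 621 to 714 in SRT-like. Of these markers 8 were higher in SRT (median 0.48), 8 in CRT (0.68) and 6 in SRT-like (0.28). In the mean of the modes 7 were (0.50). The shares of all probes that were higher were 70.6%, 77.2%, 64.7% and 73.7% in these comparisons. Cd86 was called among the macrophage and monocyte markers, in CRT (0.98, limma adjusted p 0.0151) and in the mean of the modes (0.66, limma adjusted p 0.032), and these calls were kept in 10 and 6 of 12 fits that left out a sample. The 4 dendritic cell markers summed to 139 to 310 in Nontreated, 357 to 536 in SRT, 281 to 433 in CRT and 402 to 524 in SRT-like, and Cd80 was called, in SRT-like (2.13, limma adjusted p 0.0421) and in the mean of the modes (1.75, limma adjusted p 0.0267). The first call was kept in 2 of 12 fits that left out a sample, those without Nontreated replicate 1 or SRT replicate 3. The second was kept in 9. Under SRT-like 2 of the 4 dendritic cell markers were higher than Nontreated and 2 lower. The differences ran from -1.20 to 2.13, with a median of -0.00. Their mean log2 value was 5.60 to 5.97 under SRT-like, within the 4.98 to 6.08 of Nontreated. Of the 4, 3 were higher under SRT (median 0.94) and 4 under CRT (median 0.53). The 8 class II genes summed to 419 to 927 for Nontreated and 568 to 1180 under SRT. Their sums were 259 to 1350 under CRT and 358 to 453 under SRT-like, with 0 called. For the mean of the modes H2-Ob (0.74 ± 0.22, limma adjusted p 0.129) and H2-DMb1 (0.45 ± 0.28, limma adjusted p 0.485) had the smallest p. In that comparison 4 of the 8 were higher and 4 lower, with a median of -0.06. Under SRT-like 3 were higher and 5 lower (median -0.40). SRT had 7 higher and 1 lower (median 0.48), and CRT had 5 higher and 3 lower (median 0.03). The 8 B and plasma cell markers summed to 199 to 391 over all samples, with Blk called in CRT (1.25, limma adjusted p 0.0461) though above background in no sample. This call was kept in 2 of 12 fits, those without Nontreated replicate 3 or SRT replicate 3. Of the 8, 7 were higher in SRT (median 0.47), 6 in CRT (0.45), 6 in SRT-like (0.23) and 7 in the mean of the modes (0.49). The CD8 T cell markers summed to 9270 to 13800, with 0 called, Cd8a at 0.12 ± 0.13 (limma adjusted p 0.7) and Cd8b1 at 0.14 ± 0.23 (limma adjusted p 0.792). Among CD4 T cell, natural killer cell, neutrophil and stroma markers 0 were called. The smallest p there were those of Cd40lg at 0.46 ± 0.34 and Cd4 at -0.23 ± 0.53, Ncr1 at 0.43 ± 0.29 and Eomes at 0.38 ± 0.35, Csf3r at -0.04 ± 0.30, and Pecam1 at 0.36 ± 0.21 and Pdgfrb at 0.29 ± 0.25, with limma adjusted p from 0.448 to 0.969. Of the 20 background probes 0 were called, with Prl at 0.89 ± 0.22 (limma adjusted p 0.0615) and Ifna1 at 1.24 ± 0.36 (limma adjusted p 0.123). Even so, 17 of these 20 probes were higher than Nontreated in the mean of the modes and 3 were lower, with a median difference of 0.43. By mode their median was largest for CRT, at 0.60, followed by 0.37 for SRT and 0.29 for SRT-like. In these bulk samples, a change in the number of cells of a type and a change in RNA per cell cannot be told apart, and the part of other cells in the class I values was not tested.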

How the data were processed

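Per the labels, RNA of sorted cells was lysed at 1000 to 5000 cells per microlitre, read on the nCounter panel without amplification and normalized in ROSALIND, with no version or settings named there. The deposited values are log2 normalized counts for 773 probes in 12 samples, from -0.68 to 13.92. Raised to linear scale, 100% of the values of each sample were whole multiples of a step within a tolerance of 0.02, which gave molecule counts and depths of 118694 to 467904. Differences were tested on the deposited log2 values with limma 3.58.1 (R 4.3.3), 4 group means over all 12 samples, 7 contrasts and an F test, Benjamini-Hochberg over 773 probes and a threshold of 0.05. The fit was tested on simulated data. The other steps used Python 3.11.15. Sample numbers in the titles are unique, and no batch is given.

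The genes and gene lists were chosen with earlier results of these data known, and the constitutive proteasome list was chosen after the probe names were seen. All 9 genes were named against Nontreated, and between modes the 2 with the smallest p. In other lists, those past the threshold or otherwise the 2 with the smallest p were named, and the probes of most similar pattern were the first 3 for H2-K1, H2-D1, H2-T23 and Psmb9 and the first 1 for the others, of which that for H2-Q10 is not reported here. Of the remaining marker lists, 0 of 3 CD4 T cell, 0 of 2 natural killer cell, 0 of 1 neutrophil and 0 of 4 tumour and stroma markers passed in any comparison with Nontreated. Alternatives were other scalings, filters, priors, sample weights, a count model (voom on the recovered counts) and leaving out each sample. The calls of the interferon targets, Cd86, Cd80 and Blk under these alternatives were added after seeing the data.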

Additional observations from a re-analysis of the deposited data

How the results depend on the processing

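No gene of the 9 passed the threshold in any of the 7 comparisons or the F test under any alternative run. No relation with the interferon targets passed under the other scalings or when any 1 sample was left out. Relations with the class II genes and depth were recorded only under the other scalings, and none passed there. The median difference of the 9 genes kept its sign against Nontreated except in SRT with median centring, where it was -0.02 in place of 0.25. It was 0.10 with median centring and 0.25 with quantile normalization in CRT, 0.31 with median centring, 0.26 with quantile normalization and 0.31 with voom in SRT-like, 0.14 with median centring for the mean of the modes, and 0.00 with quantile normalization for SRT against CRT. Leaving out 1 sample gave medians of 0.23 to 0.38 in SRT, 0.27 to 0.52 in CRT, 0.42 to 0.58 in SRT-like and 0.34 to 0.44 for the mean of the modes, and -0.01 to 0.17 for SRT-like against CRT. With median centring SRT gave H2-K1 -0.03, H2-D1 -0.11, H2-M3 -0.10, Psmb10 -0.02 and Psme2/2b -0.21, CRT gave Psmb10 -0.03 and Psme2/2b -0.05, and Psme2/2b was -0.08 in SRT-like and -0.11 in the mean of the modes. Psme2/2b in SRT-like was also -0.03 with quantile normalization, -0.05 scaled to the CD8 T cell markers and -0.07 with voom. Quantile normalization set every difference of H2-K1 to 0.00, because that probe ranked first in every sample. Under that scaling this fixed value enters the medians and the counts of the 9 genes. The number of genes with an unadjusted p under 0.05, with the share of all probes in brackets, was 6 (14.4%) in the mean of the modes, and 0 with median centring (6.08%) or scaling to the CD8 T cell markers (6.99%), 2 with quantile normalization (6.47%) and 8 with sample weights (31.2%). In CRT it was 4 (14%), and 0 with median centring (5.69%), 1 with quantile normalization (5.82%) or CD8 scaling (9.83%), 2 with only the groups compared (11.1%) and 6 with the trended prior (14.2%) or the block by run (17.5%). In SRT it was 1 (10.3%), and 0 with median centring (4.14%), quantile normalization (4.53%), CD8 scaling (6.47%) or only the groups compared (7.37%), and 2 with the trended prior (9.57%), sample weights (24.3%), voom (15.5%) or the block by run (15%). In SRT-like it was 4 (10.3%), and 1 with median centring (5.69%) or quantile normalization (6.34%), 0 with CD8 scaling (3.62%), 6 with only probes above background (18.3%) and 7 with sample weights (20.4%). Of all probes, other settings called 0 to 12 in SRT, 0 to 62 in CRT, 0 to 15 in SRT-like, 0 to 64 in the mean of the modes and 0 to 27 in the F test, and leaving out 1 sample called 0 to 58 in CRT and 2 to 77 in the mean of the modes. The cause of these changes was not tested. The block by run of sample numbers (1 to 5, 6 to 9, 10 to 12) gave medians of 0.38 in SRT and 0.54 in CRT, with the SRT-like samples left out because they fill a run of their own. That block is not a pairing by replicate. No paired analysis was possible because the sample numbers in the labels are unique to each sample. With 3 samples a group the number of samples limits the precision, and H2-Q10 lies near background.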
